A study of Gallus gallus with 6 samples.

Results

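Cytotoxic lymphocyte effector genes are the products through which natural killer cells and killer T cells destroy other cells and call in help. The 5 genes followed here, GZMA, GNLY, CCL5, FASLG and IFNG, were chosen by name, with earlier results of these data known. They were found as the probes whose RefSeq accession maps to one of these symbols, which gave 6 probes for 5 of the 5382 named genes on the array. All 6 probes were well above background on all 6 arrays. GZMA, GNLY, CCL5 and FASLG had 1 probe each and IFNG had 2.

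The samples were leukocytes of chickens aged 1 to 2 months, recovered from the interface of a density gradient of wing-vein blood, with 3 libraries labelled male and 3 labelled female and 1 array per library. The series title speaks of transgenic and non-transgenic chickens, and the sample labels give no genotype, strain or treatment for these birds. The series set out to compare the sexes by leukocyte expression. The labels number the libraries within a sex and do not say that each came from its own bird, so the p-values measure only the spread between these samples.

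Killer lymphocytes act by 2 routes. In one, granules holding perforin, granzymes and granulysin are emptied onto the target: granzyme A is a serine protease that cuts proteins inside the target, and the chicken gene listed as GNLY encodes NK-lysin, a membrane-damaging peptide of the saposin-like family. In the other, Fas ligand on the killer cell binds Fas on the target and starts the caspase cascade. The same cells secrete interferon gamma, the cytokine that activates macrophages and antigen presentation, and the chemokine CCL5, which attracts T cells, monocytes and natural killer cells. In blood leukocytes measured in bulk, fewer cells of a type and less RNA per cell cannot be told apart.

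A pair of facts about the series bears on every comparison. HINTW, a W-linked gene that checks the labels, read 4.58, 4.48 and 6.99 in the libraries labelled male 1, 2 and 3 and 6.61, 6.47 and 4.65 in those labelled female 1, 2 and 3 (log2 of the processed signal relative to the array's 75th percentile, the scale of every level given here). The libraries labelled male 3 and female 3 thus went against their labels, and the differences of the effectors and of the related genes named below are given with and without this pair. All male-labelled arrays lay on 1 slide and all female-labelled arrays on another, which means that a slide effect and an effect of the label cannot be told apart. The leukocyte marker PTPRC read 1.21, 1.60 and 1.35 in the male-labelled and 1.66, 1.68 and 0.92 in the female-labelled libraries.

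GZMA, which lies on the Z chromosome, varied most of the 5 genes. It read 4.59, 5.76 and 1.87 in the libraries labelled male 1, 2 and 3, against 1.01, 2.54 and 2.74 in those labelled female 1, 2 and 3. Male 1 and male 2 stood above the other 4 libraries, male 3 lay below female 2 and female 3, and the groups overlapped. Between male 2, the highest library, and female 1, the lowest, lay 4.75 log2 or 26.9-fold. The scanner software put the error of each GZMA spot at 10.0% of its signal. A range of this size or larger was seen in 131 of 29509 features tested (0.444%), and the median feature spanned 0.67 log2. Because GZMA is Z-linked, the shift of Z genes is given beside it: the median deviation of 198 Z genes, minus the autosomal median, was 0.27, 0.26 and -0.26 log2 in the male-labelled and -0.28, -0.26 and 0.28 log2 in the female-labelled libraries. The library female 3, with the highest Z value of the 6, read 2.74 for GZMA. That was below male 1 and male 2 and above male 3, female 1 and female 2. The part of the Z shift in the GZMA pattern was not tested.

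GNLY (NK-lysin), on chromosome 22, read 5.43, 6.72 and 4.55 in the male-labelled libraries and 3.73, 4.94 and 4.64 in the female-labelled ones. Male 2 was 2.45-fold above the next library, male 1, and female 1 was again the lowest. The range was 2.99 log2 or 7.92-fold, and 2.21% of features spanned as much. The groups overlapped, since male 3 lay under female 2 and female 3. No spot was saturated, and the processed intensity of GNLY reached 95340 in male 2, against 12872 in female 1.

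CCL5, on chromosome 19, read -1.31, 0.16 and -2.21 in the male-labelled libraries and -4.17, -2.84 and -2.27 in the female-labelled ones. It spanned 4.33 log2 or 20.1-fold, as much as 0.624% of features did. CCL5 was the only one of the 5 genes whose groups did not overlap, as the male-labelled library was higher in 9 of the 9 possible male and female pairings. The gap between male 3 and female 3 was 0.06 log2, which is less than the spot error of 10.1% that the scanner software gave for each of these 2 arrays. Over all features, 3.84% had every male-labelled library above every female-labelled one.

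FASLG, on chromosome 8, was dim. Its processed intensity was 43.0, 93.8 and 26.2 in the male-labelled libraries and 29.1, 34.0 and 20.5 in the female-labelled ones. In female 3, its dimmest library, the lowest intensity called well above background was 9.12. On the log2 scale it read -4.39, -3.27 and -5.11 in the male-labelled and -5.05, -4.85 and -5.41 in the female-labelled libraries. Male 2 stood 2.18-fold above male 1, and the 3 female-labelled libraries, with male 3 among them, spanned 0.56 log2. The range over all 6 was 2.14 log2, reached by 5.15% of features.

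IFNG, on chromosome 1, was also dim and its 2 probes disagreed in 1 library. The brighter probe read -3.83, -3.47 and -5.30 in the male-labelled libraries and -5.39, -4.59 and -3.73 in the female-labelled ones. The other probe read -4.07, -3.55 and -5.33 in the male-labelled and -5.68, -5.16 and -5.29 in the female-labelled libraries. Female 3 was thus above male 1 on the brighter probe, and below it on the other. Male 2 was the highest and female 1 the lowest library on both. The brighter probe spanned 1.92 log2, as 6.67% of features did, and the spot errors on it were 10.3% to 15.5% of the signal.

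**Figure D1:**
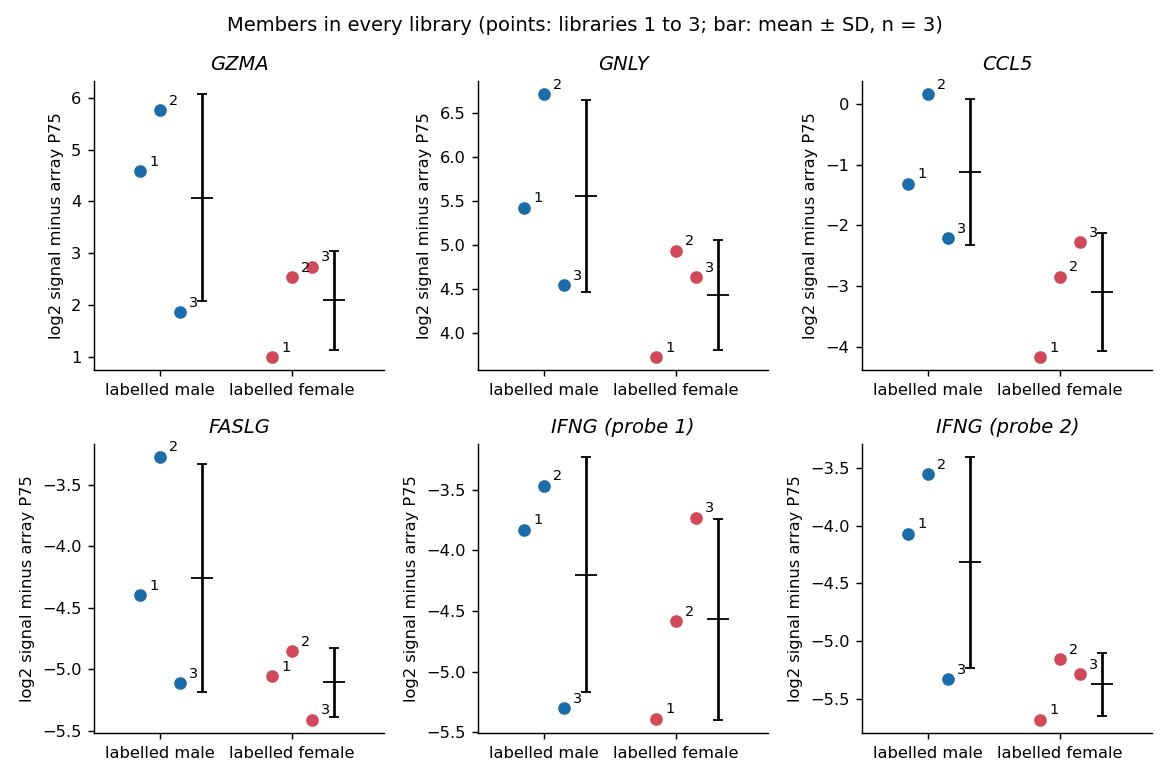
The 6 probes of the 5 genes in every library: log2 processed signal relative to the array's 75th percentile (y axis) in the libraries labelled male and female (x axis, points numbered by library, bars mean ± SD, n = 3 each). Male 2 is the highest point in each panel, and male 3 lies among the female-labelled libraries in every panel but that of CCL5.

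The 5 genes shared their highest library, and the order of the libraries below it differed between genes. Male 2 was the highest in 5 of 5 genes, against 13.8% of all features, and female 1 the lowest in 4 of 5, against 19.9%. FASLG was the exception, lowest in female 3. Male 1 and male 2 together stood above the other 4 libraries in 4 of 5 genes, against 8.19% of features, with IFNG at its brighter probe the exception. Because the 5 genes were chosen with earlier results of these data known, these shares do not test whether they stand out. The mean deviation of the 5 genes from their own means was 0.71, 1.80 and -0.62 log2 in the male-labelled and -1.36, -0.34 and -0.19 log2 in the female-labelled libraries.

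**Figure D2:**
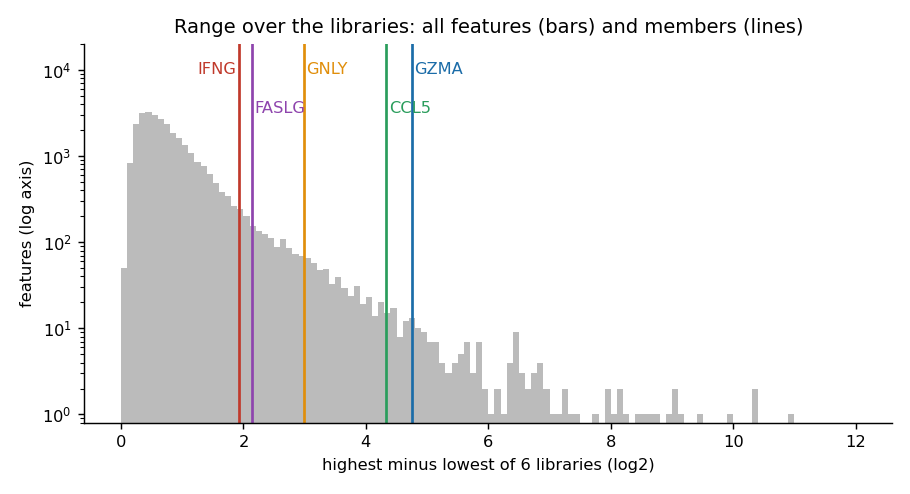
Highest minus lowest of the 6 libraries (x axis, log2) for the 29509 features tested (grey bars, count on a log axis), with the 5 genes as lines. IFNG at 1.92 and FASLG at 2.14 lie near the 95th percentile of all features, 2.17, and GNLY, CCL5 and GZMA at 2.99, 4.33 and 4.75 lie beyond it.

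Co-variation between the genes was computed for 10 pairs over the 6 libraries. All 10 had a positive Pearson r, between 0.56 and 0.96, with a median of 0.86. After Benjamini-Hochberg adjustment over the 10 pairs, 5 passed a two-sided exact permutation test at a threshold of 0.05, and 7 had an unadjusted p under 0.05. None of the 10 Spearman coefficients, which ran from 0.37 to 0.94, passed after adjustment. The same test was not run on pairs of other genes, so these counts do not set the effectors apart from other genes. The permutation also treats all 6 libraries as exchangeable over label and slide. Each slide holds 3 libraries of 1 label, too few for a correlation within a slide.

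The granule genes GZMA and GNLY went together most closely, with r = 0.96 (exact permutation p = 0.00417, adjusted 0.0370) and rho = 0.94 (exact permutation p = 0.0167, adjusted 0.0833). Without male 1 and male 2, the libraries farthest from the GZMA median, r was 0.91 over the remaining 4. GZMA and CCL5 had r = 0.94 (exact permutation p = 0.00833, adjusted 0.0370) and rho = 0.83 (p = 0.0583, adjusted 0.146), and r was 0.78 without those libraries. GNLY and CCL5 had r = 0.95 (exact permutation p = 0.0111, adjusted 0.0370) and rho = 0.77 (p = 0.103, adjusted 0.171), and r fell to 0.62 without female 1 and male 2, the farthest from the GNLY median. These 3 pairs kept a positive r in each of these checks.

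How closely FASLG followed the others depended on which libraries were counted. GZMA and FASLG had r = 0.86 (exact permutation p = 0.0194, adjusted 0.0389) and rho = 0.60 (p = 0.242, adjusted 0.302), but without male 1 and male 2 r was -0.26, so the relation rests on those libraries. GNLY and FASLG had r = 0.90 (exact permutation p = 0.0181, adjusted 0.0389) and rho = 0.77 (p = 0.103, adjusted 0.171), and r was 0.93 without female 1 and male 2. CCL5 and FASLG had r = 0.80 (exact permutation p = 0.0625, adjusted 0.0694) and rho = 0.54 (p = 0.297, adjusted 0.330), and r was 0.57 without female 1 and male 2. Leaving out male 2 alone moved r of FASLG with GZMA to 0.66, with GNLY to 0.62 and with CCL5 to 0.41.

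IFNG at its brighter probe followed GZMA in order, with rho = 0.94 (exact permutation p = 0.0167, adjusted 0.0833) and r = 0.87 (p = 0.0306, adjusted 0.0509), and r was 0.86 without male 1 and male 2. IFNG had r = 0.78 with GNLY (exact permutation p = 0.0472, adjusted 0.0675) and rho = 0.83 (p = 0.0583, adjusted 0.146), and r was 0.50 without female 1 and male 2. It had r = 0.78 with CCL5 (exact permutation p = 0.0583, adjusted 0.0694) and rho = 0.71 (p = 0.136, adjusted 0.194), and r was 0.42 without the same libraries. FASLG and IFNG were the least alike pair, with r = 0.56 (exact permutation p = 0.246, the same after adjustment) and rho = 0.37 (p = 0.497), and r was -0.56 without male 1 and male 2.

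**Figure D3:**
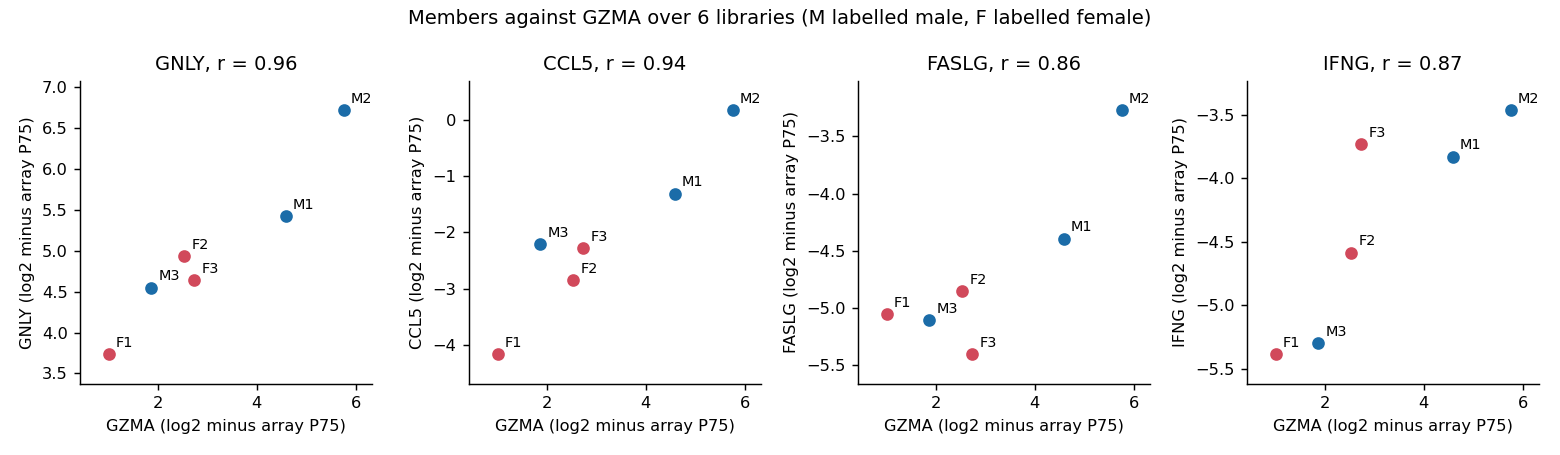
GNLY, CCL5, FASLG and IFNG (y axes) against GZMA (x axes), each as log2 signal relative to the array's 75th percentile, 1 point per library (M labelled male, F labelled female, with its number). M2 is at the upper right in all 4 panels; in the FASLG panel the 4 libraries other than M1 and M2 show no rise (r = -0.26), and in the IFNG panel F3 lies above the trend of the rest.

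Between the labelled sexes, all 5 genes had a higher mean in the male-labelled libraries, against 47.4% of all features, and none passed. The median difference of the 5 was 1.13 log2, against -0.01 log2 over all features tested. In limma over 29509 features, 0 of the 5 had an adjusted p under 0.05 (0.0% of all features did), and 1 of the 5, CCL5, had an unadjusted p under 0.05, as did 3.81% of features, 1.77% in the direction of CCL5 and 2.04% in the opposite one. GZMA, GNLY and CCL5, 3 of the 5, exceeded a 2-fold higher mean with the male label, which 0.949% of features reached.

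GZMA averaged 4.07 ± 1.99 in male-labelled and 2.09 ± 0.95 in female-labelled libraries (SD, n = 3 each), a difference of 1.98 log2 (SE 1.02, limma 95% interval -0.51 to 4.46, adjusted p = 0.948). CCL5 averaged -1.12 ± 1.20 and -3.10 ± 0.97, 1.97 log2 apart (SE 0.72, interval 0.23 to 3.72, limma unadjusted p = 0.0323). GNLY averaged 5.56 ± 1.09 and 4.44 ± 0.63, a difference of 1.13 log2 (SE 0.59, interval -0.31 to 2.56). For each of the 5 genes the spread among the male-labelled libraries alone was larger than the difference between the means. That spread was 3.89 log2 for GZMA, 2.38 for CCL5, 2.17 for GNLY, 1.84 for FASLG and 1.83 for IFNG at its brighter probe.

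FASLG averaged -4.26 ± 0.93 in male-labelled and -5.11 ± 0.28 in female-labelled libraries, a difference of 0.85 log2 (SE 0.46, interval -0.27 to 1.96). IFNG differed by 0.37 log2 at its brighter probe (SE 0.60, interval -1.08 to 1.82) and by 1.06 log2 at the other (SE 0.45, interval -0.04 to 2.16, with each probe tested separately, where 3.91% of probes had an unadjusted p under 0.05). The limma adjusted p of every one of these genes was 0.948, and that of the second IFNG probe was 0.942. After normexp background correction, which adds an offset that damps dim spots, FASLG differed by 0.43, the brighter IFNG probe by 0.26 and the other by 0.43 log2.

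All 5 genes remained higher with the male label when libraries that went against their labels were left out. Without male 3 and female 3, the pair that went against its labels, GZMA differed by 3.40 log2 (SE 0.68), CCL5 by 2.93 (SE 0.70), GNLY by 1.74 (SE 0.63), IFNG by 1.34 (SE 0.33) and FASLG by 1.12 (SE 0.42), all above 0 as were 45.7% of features. In that limma fit 0 of the 5 passed, with adjusted p between 0.133 and 0.238, against 0.288% of features. At an unadjusted p under 0.05 it held GZMA, CCL5 and IFNG, as it did 21.6% of features. All 5 then exceeded a 2-fold difference, which 2.28% of features reached. Without male 2 alone the difference of GZMA was 1.13, of CCL5 1.33, of GNLY 0.55 and of FASLG 0.35 log2, and that of IFNG 0.0031 log2. Without male 3 alone that of GZMA was 3.08, of FASLG 1.27 and of IFNG 0.92 log2. IFNG was also moved by single female-labelled libraries, to -0.04 log2 without female 1 and 0.79 log2 without female 3, and to 0.19 log2 without male 1.

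**Figure D4:**
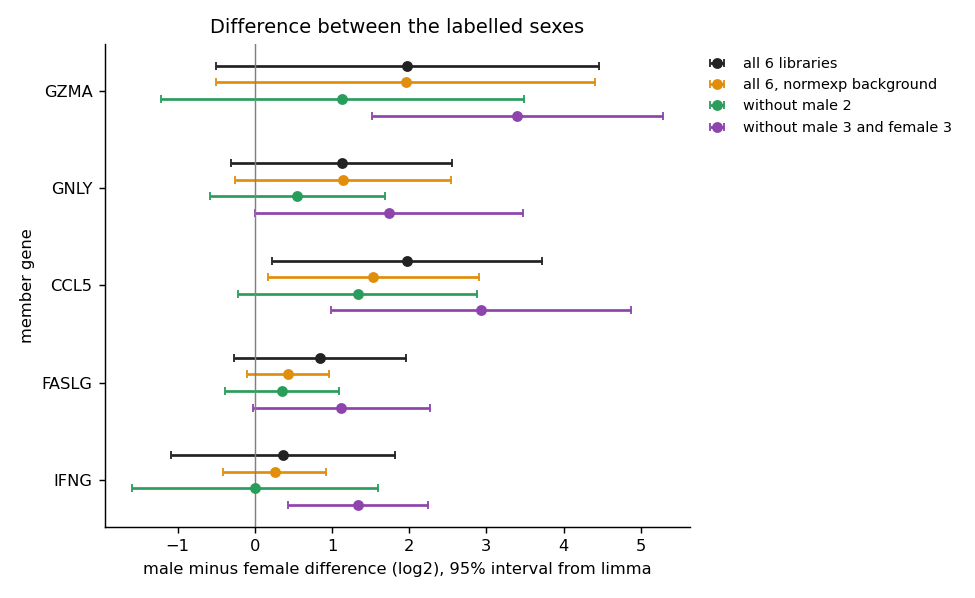
Male minus female difference (x axis, log2, point and limma 95% interval) of each of the 5 genes (y axis) with all 6 libraries, after normexp background correction, without male 2, and without male 3 and female 3. With all 6 libraries only the interval of CCL5, 0.23 to 3.72, lies above 0, and without male 2 the intervals of all 5 genes include 0.

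In no list of related genes did a gene pass between the labelled sexes, with all 6 libraries or without male 3 and female 3. The lists were written by hand, and a gene counts as measured where it had a probe named here that passed the filter. Of the granule release list 3 of 13 named genes were measured and 0 passed. Perforin (PRF1), the pore former, and the granzymes GZMK and GZMM had no probe named here. The lysosomal membrane genes LAMP1 and LAMP2 differed by 0.02 and -0.02 log2 and the vesicle fusion gene VAMP7 by 0.07 log2, and without male 3 and female 3 by 0.07, -0.07 and 0.13 log2. These 3 signs turned when single libraries were left out, and that of LAMP2 also with median scaling or normexp. LAMP2, for one, spanned only 0.22 log2 over the 6 libraries.

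Receptors of Fas ligand and interferon gamma are named here for that role, after their values were seen. FAS, the receptor of Fas ligand, differed by 0.48 log2 (SE 0.31), and it read 0.50 in male 2 and below that in the other 5 libraries. The interferon gamma receptor chains IFNGR1 and IFNGR2 differed by -0.22 (SE 0.17) and -0.05 log2 (SE 0.19). Without male 3 and female 3 these were 0.75 for FAS, -0.25 for IFNGR1 and 0.15 log2 for IFNGR2. With single libraries left out FAS ran from 0.19 without male 2 to 0.80 without male 3, IFNGR1 from -0.33 without male 3 to -0.14 without female 3, and IFNGR2 from -0.17 without female 2 to 0.13 without female 3. None of these 3 passed in limma.

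In the death receptor pathway, 11 of 17 named genes were measured and 0 passed. Of these 11, 8 had a higher male-labelled mean, against 47.4% of all features, and the median difference was 0.25 log2. TNFRSF10B, listed as a TRAIL receptor, went the other way at -0.75 log2 (SE 0.15, limma adjusted p = 0.941). It read -2.93, -3.03 and -2.80 in the male-labelled and -2.15, -2.01 and -2.37 in the female-labelled libraries, so the groups did not overlap; 4.16% of features had every male-labelled library below every female-labelled one. CYCS, the cytochrome c that joins the caspase-activating complex, was at 0.31 and the effector caspase CASP6 at 0.40 log2. TNFRSF10B was at -0.91, CYCS at 0.42 and CASP6 at 0.62 log2 without male 3 and female 3. CASP6 was at 0.25 without female 2 and 0.61 log2 without male 3.

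In the interferon gamma list, 12 of 18 named genes were measured, 0 passed, and the median difference was 0.10 log2. NOS2, the inducible nitric oxide synthase that interferon gamma raises in macrophages, read 0.61, 0.85 and 0.13 in the male-labelled and -0.44, -0.00053 and -0.05 in the female-labelled libraries. The groups did not overlap, with a difference of 0.69 log2 (SE 0.23, limma unadjusted p = 0.0221, adjusted 0.948). IL18, a cytokine that drives interferon gamma release, differed by 0.38 log2 (SE 0.12), and its groups did not overlap either. These were the 2 genes of the list with every male-labelled library above every female-labelled one, as 3.84% of all features had. NOS2 differed by 0.95 and IL18 by 0.36 log2 without male 3 and female 3. IL12B, a subunit of the cytokine IL-12, was not well above background on any array.

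Of the CCL5 receptors and related chemokines, 11 of 15 named genes were measured, 0 passed, and the median difference was -0.01 log2. CCL4, a CC chemokine next to CCL5 on chromosome 19, had a large spread of its own: it read 0.69, 0.28 and -0.97 in the male-labelled and -0.50, 2.07 and -1.27 in the female-labelled libraries. Its highest library was female 2, not male 2, and its difference was -0.10 log2 (SE 0.91). The 2 adjacent chemokine genes thus varied over the same libraries in different orders. The homing receptors CCR7 and CXCR4 were at -0.45 (SE 0.18) and -0.35 log2 (SE 0.16), and XCL1, a chemokine made by activated killer lymphocytes in mammals, was at 0.68 log2 (SE 0.42). Without male 3 and female 3 CCL4 was at -0.30, CCR7 at -0.59, CXCR4 at -0.38 and XCL1 at 0.76 log2, and the median of the list was -0.30 log2. XCL1 was at 0.36 without either female 1 or male 2 and 1.02 log2 without female 2, and CCL4 at 0.88 without female 2 and -0.78 log2 without female 3.

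Of the lineage transcription factors, EOMES, TBX21, RUNX3 and PRDM1 had no probe named here. Of the 16 named genes 8 were measured, 0 passed and 4 had a higher male-labelled mean, against 47.4% of all features. ID2, a regulator needed for natural killer cell development in mice, spanned 0.41 log2 over the 6 libraries and differed by -0.12 log2. The Ikaros family gene IKZF2 differed by 0.11 and NFIL3, a Z-linked gene, by 0.24 log2. ID2 differed by -0.22, IKZF2 by 0.04 and NFIL3 by 0.78 log2 without male 3 and female 3. With single libraries left out NFIL3 ran from 0.03 without female 2 to 0.65 without female 3, IKZF2 from 0.016 without male 2 to 0.22 without male 1, and ID2 from -0.19 without female 3 to -0.04 without female 1.

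Among surface and adaptor genes of cytotoxic lymphocytes, 15 of 23 named genes were measured and 0 passed, and the median difference was -0.0066 log2. The mean deviation of these 15 was -0.02, 0.40 and -0.12 log2 in the male-labelled and -0.28, -0.0064 and 0.03 log2 in the female-labelled libraries, highest in male 2 and lowest in female 1 as for most effectors. CD8A, the gene of the CD8 alpha chain, read -0.10, 1.23 and -0.49 in the male-labelled and -0.55, -0.50 and 0.36 in the female-labelled libraries. Male 2 was the highest, as for the effectors, but female 3 was second. CD8BP, the gene of the CD8 beta chain, was instead highest in female 3 at 4.12, against 2.83, 2.73 and 2.33 in the male-labelled and 1.80 and 2.47 in the other female-labelled libraries. IL21R, the receptor of interleukin-21, was at 0.86 (SE 0.42), the checkpoint receptor LAG3 at 0.77 (SE 0.52) and the interleukin-2 receptor alpha chain IL2RA at -0.59 log2 (SE 0.33). Without male 3 and female 3 IL21R was at 1.37, LAG3 at 1.26 and IL2RA at -0.92 log2, and the median of the list was 0.26 log2. With single libraries left out, these 3 were closest to 0 without male 2, at 0.49 for IL21R, 0.24 for LAG3 and -0.25 for IL2RA. They were then farthest from it without male 3, at 1.32, 1.21 and -0.82 log2. IL2RA was dim, at -5.12 in male 2 and -3.54 in female 2, and came to -0.24 log2 under an alternative that kept all 6 libraries. BLEC2, listed with the synonym B-NK and named after its values were seen, read -0.42 in male 2 and between -4.33 and -3.16 in the other 5 libraries.

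T cell markers varied less than the effectors over the libraries. Of 17 named genes 10 were measured, 0 passed, and the list's mean deviation lay between -0.23 and 0.09 log2 in the male-labelled and -0.11 and 0.19 log2 in the female-labelled libraries, with male 2 the lowest. Single markers spanned 0.31 log2 (CD3E, a chain of the T cell receptor complex) to 0.84 log2 (CD28, a costimulatory receptor), both named after their values were seen. The transcription factors TCF7 and LEF1, which mark naive T cells in mammals, were at -0.33 (SE 0.19) and -0.30 log2 (SE 0.16), and CD40LG was at 0.16 log2. TCF7 was at -0.47, LEF1 at -0.33 and CD40LG at 0.05 log2 without male 3 and female 3. With single libraries left out TCF7 ran from -0.49 without male 3 to -0.19 without male 2, and CD40LG from 0.05 without male 1 to 0.30 without male 2. The summed level of the list, in multiples of the array's 75th percentile, was 348 to 391 in the male-labelled and 302 to 419 in the female-labelled libraries, while that of the 5 effectors was 27.3 to 161 and 15.4 to 36.7. By this sum of T cell markers male 2, at 391, was the highest male-labelled library, and female 1, at 302, was the lowest of all. The sum is led by the brightest genes and the mean deviation weighs each gene alike, so these measures ranked male 2 differently.

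Markers of other cells differed between the same libraries. Heterophil markers, 13 measured, deviated by -0.17, -2.05 and 1.53 log2 in the male-labelled and 0.02, -1.17 and 1.85 log2 in the female-labelled libraries, so the library with the most effector signal, male 2, had the least heterophil signal, and their summed level was 10.9 to 186 and 19.9 to 244. Erythroid markers, 10 measured, were lowest in male 2 at -0.58 log2, with a summed level of 595 to 1325 in the male-labelled and 944 to 1163 in the female-labelled libraries. Proliferation genes, 14 measured, deviated by 0.54, 0.39 and -0.18 log2 in the male-labelled and -0.35, -0.21 and -0.20 log2 in the female-labelled libraries. Their summed level was 15.2 to 25.1 and 14.4 to 15.7. All 14 had a higher male-labelled mean, against 47.4% of all features, and 0 passed. Of the 14, 7 were higher at a limma unadjusted p under 0.05, against 1.77% of features. In 4 every male-labelled library lay above every female-labelled one, against 3.84%. B cell markers, 9 measured, deviated by 0.13, 0.29 and -0.02 log2 in the male-labelled and -0.45, -0.09 and 0.13 log2 in the female-labelled libraries, highest in male 2 and lowest in female 1 as the mean of the effectors was, with a summed level of 96.6 to 110 and 69.2 to 107. Monocyte markers, 12 measured, deviated by -0.16 to 0.32 and -0.46 to 0.47 log2, with a summed level of 26.3 to 32.2 and 22.7 to 36.9, and thrombocyte markers, 4 measured, by -0.24 to 0.09 and -0.10 to 0.17 log2, with a summed level of 251 to 336 and 304 to 348. The part of these lists in the effector differences was not tested.

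**Figure D5:**
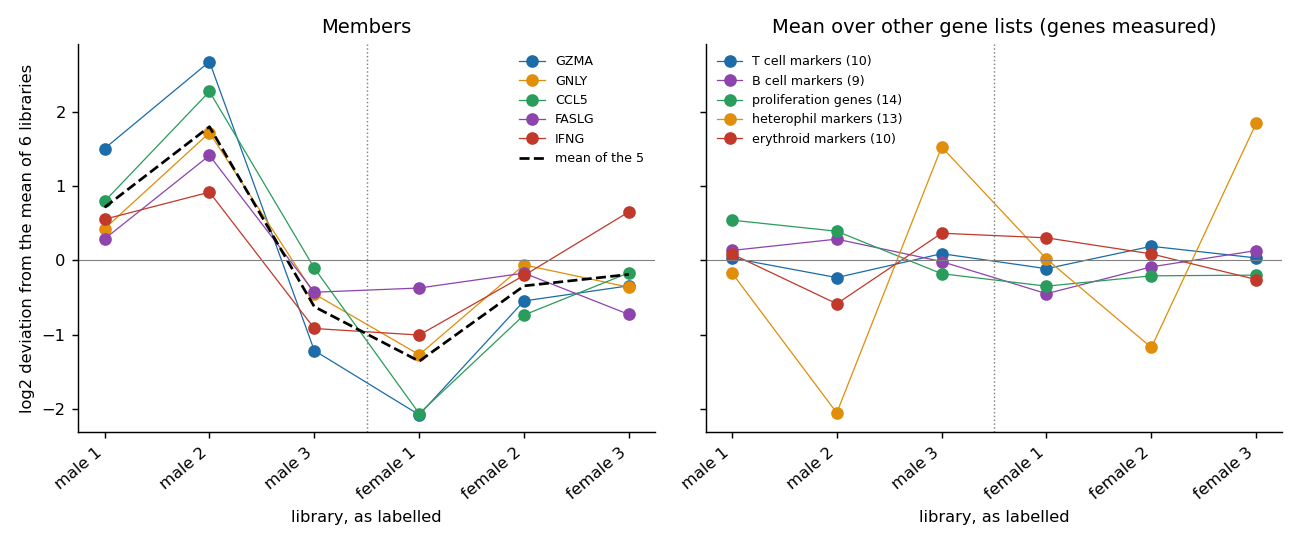
Deviation from the mean of the 6 libraries (y axis, log2) in each library as labelled (x axis) for the 5 genes and their mean (left), and for the mean over 5 lists of other genes with the number measured (right); lines only join the points of 1 gene or list. The mean of the 5 genes is 1.80 in male 2 and -1.36 in female 1, T cell markers stay between -0.23 and 0.19, and heterophil markers run from -2.05 in male 2 to 1.85 in female 3.

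Genes whose pattern was most like that of the effectors were sought among 957 other named genes that were well above background on all 6 arrays and spanned at least 1 log2. Likeness was Pearson's r over the 6 libraries with the mean deviation of the 5 genes, and no p is given because these genes were picked as the extremes. Of the 957, 24 (2.51%) had r of at least 0.9, and the median was -0.04. The 8 highest, in falling order, were IL21R, MAD2L1, THYN1, LAG3, TSPAN1, SEPTIN8, HIC2 and BCL2A1, with r from 0.98 to 0.96. IL21R, MAD2L1 and THYN1 were also the 3 most like GZMA alone, with r of 0.99, 0.98 and 0.98.

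IL21R read -2.09, -1.55 and -3.22 in the male-labelled and -3.40, -2.99 and -3.05 in the female-labelled libraries. LAG3, an inhibitory receptor of activated T and natural killer cells, read -0.15, 1.08 and -0.87 in the male-labelled and -1.27, -0.33 and -0.64 in the female-labelled libraries. Both were thus highest in male 2 and lowest in female 1, as GZMA was. BCL2A1, a survival protein of the BCL2 family, spanned 1.82 log2 and differed by 1.01 log2 between the labelled sexes, and the spindle checkpoint gene MAD2L1 spanned 1.03 and differed by 0.51 log2. Without male 3 and female 3 these differences were 1.54 for BCL2A1 and 0.79 log2 for MAD2L1. TSPAN1, a tetraspanin, spanned 2.97 and HIC2, a zinc finger repressor, 2.50 log2. None of the 8 passed between the labelled sexes (limma adjusted p = 0.948 each).

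The genes that ran opposite were ANK3, ADORA3, CHST6 and COLEC12, with r from -0.98 to -0.97. ANK3, a membrane-skeleton linker, read -5.90, -6.23 and -5.18 in the male-labelled and -5.10, -5.40 and -5.46 in the female-labelled libraries. It was dim, below FASLG in every library. ADORA3, an adenosine receptor, read -3.16, -3.72 and -2.73 in the male-labelled and -2.26, -2.96 and -2.81 in the female-labelled libraries. Male 2 was the lowest library and female 1 the highest in both, which were picked for running opposite to the effectors. COLEC12, a scavenger receptor, spanned 1.51 and CHST6, a carbohydrate sulfotransferase, 1.39 log2.

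Measured genes near each effector on its chromosome were set beside it by their range. The Z-linked neighbours of GZMA, PELO, FST, SKIV2L2 and DDX4, spanned 0.52 to 1.30 log2 over the 6 libraries, against 4.75 for GZMA. The neighbours of GNLY, CAMK2B and YKT6, spanned 0.66 and 0.90 log2, against 2.99 for GNLY. Those of IFNG, TMBIM4, DYRK2, MDM1 and RAP1B, spanned 0.33 to 1.32 log2, against 1.92 for IFNG. Around FASLG, PRDX6, TADA1 and ITPA spanned 0.41 to 0.65 log2, against 2.14 for FASLG. Apart from CCL4, the neighbours of CCL5 were LOC395551, which spanned 2.01 log2, and SUPT4H1 and CLDN3, which spanned 0.27 and 0.38 log2.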

How the data were processed

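Each scanner table held 1-colour spot intensity deposited by the authors, per the file headers read with Agilent Feature Extraction 11.5.1.1 on a grid annotated to galGal3. The processed column holds background-subtracted signal that is not scaled between arrays. The authors' deposited matrix held the same intensity times 1 factor per array, 2.10 to 2.31, linear and not centred, with column medians of 286, 292 and 301 (labelled male) and 318, 313 and 291 (labelled female); what it was scaled to is unknown here.

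From these, log2 of the processed signal minus each array's 75th percentile (873 to 983) over 43803 non-control spots was taken, without 3 to 12 outlier spots per array. Probes had to be well above background on 3 or more arrays (35143 of 43603), and 79.0% to 83.1% of spots were well above background. A named gene was represented by its brightest kept probe. Probe accessions, stripped of versions, were looked up in a RefSeq gene table (assembly GRCg7b), which tied 11935 probes to 5382 genes; 31668 probes are unnamed here, and no coordinates are printed because the builds differ. List genes were matched by symbol, and the AvBD, cathelicidin, CD8 beta and B-locus lectin genes by the table's synonym.

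Male and female labels were compared with limma 3.58.1 in R 4.3.3 (two-sided, Benjamini-Hochberg over all 29509 features, differences coded male minus female, threshold 0.05). Pairs of effector genes were compared by two-sided exact permutation over 720 orders. The fit was tested on simulated data. The members, lists and left-out pair were chosen with earlier results of these data known. Named genes were the 5 members, up to 3 per cytotoxic or T cell list with the smallest p, PTPRC, HINTW and the extremes of likeness; CD8A and CD8BP are defining markers of the list, CD3E and CD28 the ends of the T cell range, and neighbours were taken by position; a few genes these rules name are not reported here. The number of arrays limits the precision. Alternatives covered background, scaling, filters, probe summary, moderation settings, a block on replicate number, and leaving out libraries; normexp used median spot signal with an offset of 50, since mean spot signal was not among the columns used here. Figures were made with matplotlib 3.10.9 in Python 3.11.15.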

Additional observations from a re-analysis of the deposited data

How the results depend on the processing

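None of the 5 effector genes passed over all features in limma under any of the 16 alternatives run, and all differences stayed positive except that of IFNG without female 1 (-0.040 log2). With single libraries left out, the male minus female difference ran from 1.13 to 3.08 log2 for GZMA, 0.55 to 1.64 for GNLY, 1.33 to 2.52 for CCL5, 0.35 to 1.27 for FASLG and -0.040 to 0.92 for IFNG. Under the other alternatives with all 6 libraries it ran from 1.94 to 2.02, 1.08 to 1.17, 1.53 to 2.02, 0.43 to 0.90 and 0.26 to 0.72 log2 in the same gene order, with the upper IFNG value from the mean of its 2 probes. With the replicate number as a block the differences were unchanged by construction, the SE of FASLG was 0.30, and the limma adjusted p of each of the 5 was 0.963. Libraries of the same number did not deviate together (r of their deviations 0.01, -0.11 and -0.21 over features). With 3 libraries per label, and male 3 and female 3 against their labels, this check cannot tell whether they share more than a number. Over all features, 0 passed with all libraries (1124 at an unadjusted p under 0.05), 1 after quantile normalization, 2 without male 1 and 85 without male 3 and female 3; the cause was not tested. Left-out single libraries gave 0 to 2.

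Among list genes, VAMP7 turned to -0.10 without female 1 and -0.0058 without male 3, LAMP1 to -0.12 without female 2, and LAMP2 to 0.00014 after normexp, 0.030 with median scaling, 0.0092 without female 1 and 0.050 without male 1. With single libraries left out the differences ran from -0.10 to 0.22 log2 for VAMP7, -0.12 to 0.12 for LAMP1 and -0.062 to 0.050 for LAMP2.

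Pairs that passed only under an alternative were GZMA and IFNG (r = 0.86 after quantile normalization, 0.84 after normexp and 0.98 with the mean of IFNG probes) and CCL5 and FASLG (0.84 and 0.94 after quantile normalization and normexp). With the mean of IFNG probes so did GNLY and IFNG (0.92), CCL5 and IFNG (0.91) and FASLG and IFNG (0.78). With single libraries left out, a check added after the values were seen and given with no test, r ran from 0.93 to 0.99 for GZMA and GNLY, 0.87 to 0.99 for GZMA and CCL5, 0.66 to 0.93 for GZMA and FASLG, 0.80 to 0.98 for GZMA and IFNG, 0.89 to 0.98 for GNLY and CCL5, 0.62 to 0.99 for GNLY and FASLG, 0.66 to 0.93 for GNLY and IFNG, 0.41 to 0.91 for CCL5 and FASLG, 0.64 to 0.90 for CCL5 and IFNG, and 0.19 to 0.90 for FASLG and IFNG. The lowest value came without male 2 in every pair with FASLG. Signal over background limits FASLG and IFNG, IL2RA of the surface and adaptor list, and ANK3 among the genes that ran opposite.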
